A study of Mus musculus with 10 samples.

Results

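The 27 genes described here were low in wild-type marginal zone precursor B cells, were higher when the kinase NIK was switched on in B cells, with or without an active Notch2 allele, and were lower again in lymphoma of the genotype with both alleles. They were chosen by thresholds on the group means of CPM, estimated counts scaled to a common library total, and are 27 of 21556 protein coding genes. A member had a control mean under 5 CPM, means of at least 2 CPM and at least 3 times control in both pre-malignant groups with the NIK allele (here the NIK groups), and a mean in doubly activated cells of at least 3 times that in lymphoma. 6 names were left out beforehand, of which 4 (Klhl29, Sspo, Kctd15 and Cnr1) met every threshold. The thresholds for induction alone were met by 86 genes other than the names left out, so the members are 31.4% of these and 59 induced genes did not meet the loss threshold.

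The study measured total RNA of C57BL/6 mouse cells by RNA sequencing in 5 groups of 2 libraries. Control cells were wild-type precursors of marginal zone B cells from lymph node, with no Cre allele named. NF-kB-activated precursors carried Rosa-NIKdeltaT3flSTOP, a NIK transgene behind a stop cassette, and CD19Cre, which removes the cassette in B lineage cells. Doubly activated precursors carried in addition Rosa-Notch2ICN, the intracellular part of Notch2. The group called Notch-labelled here carried Rosa-Notch2ICN and CD19Cre without the NIK allele and is labelled as marginal zone B cells, not as precursors, so genotype and cell type differ together against control. Lymphoma cells had the same alleles as doubly activated cells and came from lymphoma tissue, and the other 4 groups are labelled pre-malignant and from lymph node. All groups but control thus carry CD19Cre. The labels give neither age nor sex. The control libraries held 59.2 and 0.647 CPM of the Y-linked Ddx3y and the Notch-labelled ones 2.55 and 2.02, against 105 to 177 in all others. Sex and group thus cannot be told apart in comparisons with control or Notch-labelled libraries. The labels also do not state that paired libraries are different animals. The control libraries differ in Ddx3y and so are not repeats of a single RNA sample. In the other pairs the spread may be technical, and a p-value reflects the spread of these libraries alone.

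NIK, encoded by Map3k14, phosphorylates the kinase IKK alpha, which leads to the processing of the precursor p100 to p52 and so to nuclear p52 with RelB, the noncanonical branch of NF-kB signalling. TRAF3 normally holds NIK at a low level by directing its degradation, and a NIK that lacks the TRAF3-binding part escapes this control. In B cells the branch is known for survival and maturation downstream of the BAFF receptor and CD40, and in the thymic medulla for the development of the epithelial cells that express Aire.

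Depth was 16380889 to 23102081 estimated counts per library, and 15583 genes including all 27 members were tested. Map3k14 was at 102 and 128 CPM in control libraries, 218 and 215 in NF-kB-activated and 234 and 238 in doubly activated ones, at 38.7 and 35.9 in Notch-labelled and at 143 and 146 in lymphoma libraries. The 8 B cell markers summed to between 7731 and 9634 CPM in the control and NIK groups, to 4026 and 3815 in Notch-labelled and to 5712 and 5599 in lymphoma libraries. The Notch-labelled and lymphoma libraries stood apart by their immunoglobulin genes: the leading heavy chain V segment took 92.9% and 94.0% of heavy chain V counts in the former and 92.5% and 92.3% in the latter, against 5.05% to 7.39% in the other groups. The leading heavy chain segment was Ighv1-55 in both Notch-labelled libraries and Ighv1-11 in both lymphoma libraries. The leading kappa segment was also shared, Igkv12-41 (92.7% and 94.1%) in the former and Igkv17-121 (90.8% and 91.7%) in the latter. Each of these groups is thus dominated by a single heavy chain, and clone and genotype cannot be told apart in them. Their paired libraries cannot be taken as separate clones, so p-values for these groups do not measure the spread between clones. In bulk RNA, fewer cells of a type and less RNA per cell cannot be told apart either.

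**Figure D1:**
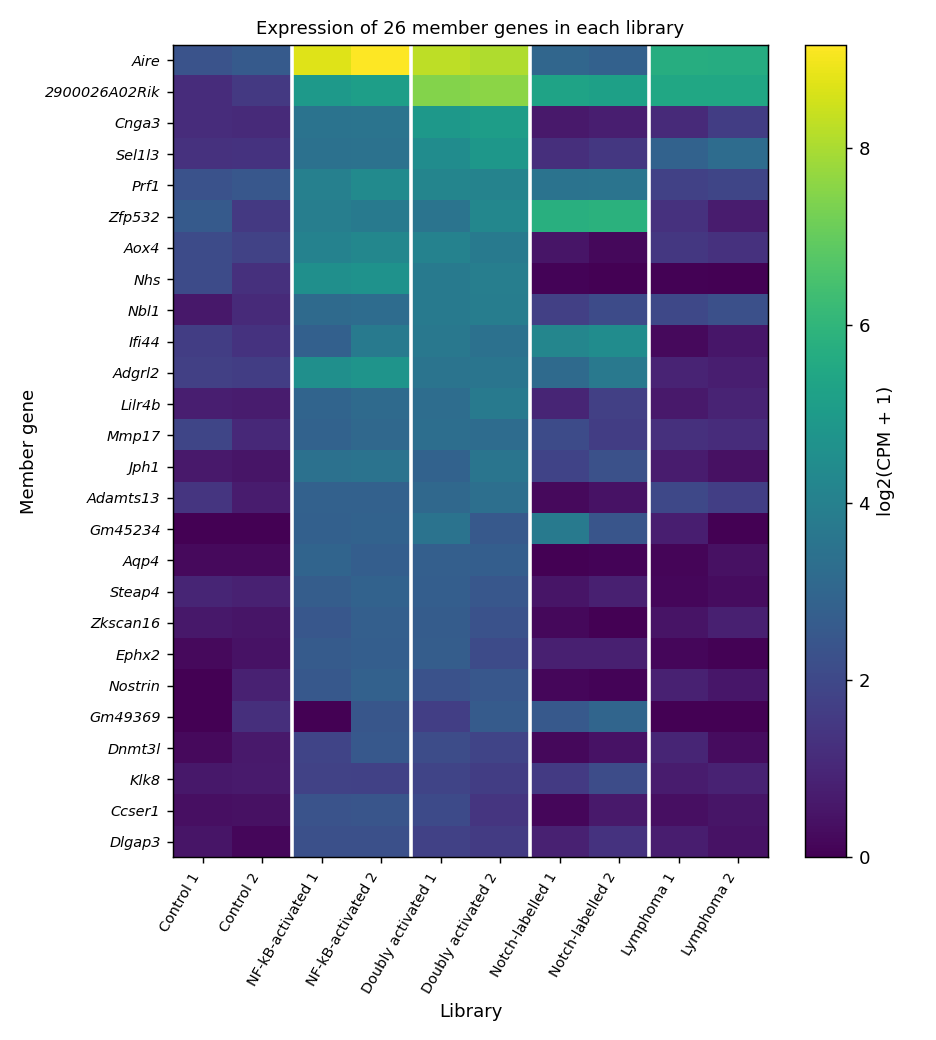
Level of 26 member genes (rows, ordered by mean CPM in doubly activated cells) in each of the 10 libraries (columns, in pairs by group), as log2(CPM + 1) by colour. Control and lymphoma columns are dark and the NF-kB-activated and doubly activated columns are brighter, which the choice of members fixes, while the Notch-labelled columns, which the choice did not use, are mixed.

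The thresholds used the values of 4 groups, so the rise over control in the NIK groups and the fall in lymphoma are descriptions of how the members were chosen. Of the 27 members, 26 were called higher in NF-kB-activated than in control libraries, where 8.72% of all genes tested were called higher, and the median log2 fold change was 3.35. In doubly activated libraries 26 were called higher than control (10.5% of all genes), with a median of 3.13. Against doubly activated cells 26 were called lower in lymphoma (25.2% of all genes), with a median of -3.03. The member not called in any of the 3 was the predicted gene Gm49369, whose libraries disagreed within groups, at 0 and 1.34 CPM in the control pair and 0 and 4.52 in NF-kB-activated cells.

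The word loss holds against the doubly activated cells and only in part against control. The lymphoma mean stayed above the control mean in 16 members and lay below it in 11. Member levels were also modest for the most part: 14 had a control mean under 1 CPM and 13 reached a mean of 10 CPM in doubly activated cells. On the length-corrected scale of TPM, the median member ranked at percentile 56.2 of protein coding genes in doubly activated cells, and Aire at percentile 97.1.

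The members nearest the thresholds show how sharp the choice was. Below the control limit of 5 CPM the closest means were those of Aire (4.60), Prf1 (4.29) and Zfp532 (3.49), and just above it lay Zfp467 (5.32), Hspg2 (7.71) and Ksr1 (25.2). For the loss, doubly activated over lymphoma was 3.21 for Adamts13, 3.32 for Sel1l3 and 3.36 for Klk8, and 2.94 for Fabp5, 2.75 for Adm and 2.72 for Gpr179 outside. For the ratio of NF-kB-activated to control the closest members were Gm49369 (3.37), Mmp17 (3.59) and Zfp532 (3.86), with Pard6g (2.92), Rasal2 (2.76) and Disc1 (2.74) outside. For the ratio of doubly activated to control they were Prf1 (3.84), Zfp532 (4.08) and Mmp17 (4.45), with Armcx4 (2.57), Ank1 (2.55) and Pygl (0.967) outside. On the floor of 2 CPM, the lowest NF-kB-activated means inside were Gm49369 (2.26), Klk8 (2.47) and Dnmt3l (3.69), and Pcdh9 (1.74), Slc47a1 (1.69) and Nlrp1a (1.63) lay outside. The lowest doubly activated means inside were Dlgap3 (2.23), Ccser1 (2.42) and Klk8 (2.43), and Spaca1 (1.87), Stk32c (1.27) and Slc2a13 (1.18) lay outside.

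Among the regulators of gene expression, Aire was the member with the highest level. Aire encodes the nuclear factor through which medullary thymic epithelial cells transcribe tissue-restricted genes. It was at 4.11 and 5.08 CPM in control libraries, 417 and 571 in NF-kB-activated, 302 and 265 in doubly activated, 7.18 and 6.26 in Notch-labelled and 51.5 and 49.9 in lymphoma libraries. The NF-kB-activated and doubly activated groups did not overlap the others, which for control and lymphoma the choice of members largely sets. Lymphoma lay between these groups and control. In TPM the means were 2.63 in control, 335 in NF-kB-activated, 180 in doubly activated and 28.9 in lymphoma cells. Of the 4 epithelial markers listed, Krt8 was at 0 in all libraries but the Notch-labelled ones, and in the control and NIK groups Krt18 did not exceed 0.0539 CPM and Cdh1 0.520. The fourth, Epcam, was at 9.26 and 5.33 CPM in the control pair, 15.9 and 15.4 in NF-kB-activated and 10.7 and 9.10 in doubly activated libraries. Epcam was called higher in NF-kB-activated than control cells (1.11 ± 0.23, edgeR adjusted p = 0.0068) and not in doubly activated cells (0.52 ± 0.24, 0.16), and its part in the Aire values was not tested.

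Aire was lower in doubly activated than in NF-kB-activated cells, with a log2 fold change of -0.73 ± 0.13 (SE, 2 libraries a group, edgeR adjusted p = 0.0047). Without doubly activated library 2 the difference was -0.66 with adjusted p = 0.063, so that call rests on that library. Lymphoma stayed above control by 3.53 ± 0.18 (edgeR adjusted p = 2.7e-08). The Notch-labelled libraries, at a difference of 0.44 ± 0.21, were not called against control (edgeR adjusted p = 0.083).

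Most Aire counts were assigned to a transcript that is not annotated as coding. Aire-206, a nonsense-mediated decay transcript of 14 exons that retains an intron of 949 bases (chr10:78034708-78035656 in GRCm38), held 88.0% of the Aire counts in control, 76.5% in NF-kB-activated, 75.5% in doubly activated, 84.5% in Notch-labelled and 76.5% in lymphoma cells. The protein coding Aire transcripts had mean CPM of 0.295 in control, 63.4 in NF-kB-activated, 44.3 in doubly activated, 0.692 in Notch-labelled and 6.28 in lymphoma cells. The order of the groups was the same for the coding transcripts as for the whole gene. How estimated counts divide between overlapping transcripts depends on the assignment by the quantifier and was not tested.

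Dnmt3l, an inactive relative of the DNA methyltransferases that stimulates de novo methylation in germ cells, is the neighbour of Aire and is itself a member. The genes lie on opposite strands of chromosome 10 and overlap, Aire at chr10:78030022-78043610 on the minus strand and Dnmt3l at chr10:78041947-78063622 on the plus strand. Dnmt3l was at 0.183 and 0.539 CPM in control libraries, 2.65 and 4.73 in NF-kB-activated, 3.35 and 2.69 in doubly activated, 0.159 and 0.372 in Notch-labelled and 0.909 and 0.233 in lymphoma libraries. The levels rank the groups nearly as those of Aire do, at a far lower level. The transcript Dnmt3l-205, which starts at position 78042287 inside Aire, 1323 bases from the Aire start, held 68.9% of the Dnmt3l counts in NF-kB-activated and 94.4% in doubly activated cells. The NF-kB-activated libraries differed in this, at 44.1% in library 1, where Dnmt3l-201 held 48.7%, and 82.8% in library 2. It had no count in control or Notch-labelled libraries and 0.201 and 0.216 CPM in lymphoma. Its exons share no base with an Aire exon. No label says whether the libraries keep strand, so reads of the overlapping stretch cannot be assigned to a strand with certainty.

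The starts of the gene pair are printed to show how close they lie, as 300 bases of GRCm38.p6 from RefSeq, 250 before and 50 after each start, on the strand of the gene. The windows cover chr10:78043561-78043860 (minus) for Aire and chr10:78042037-78042336 (plus) for the Dnmt3l start of Dnmt3l-205. No letters are in capitals because none of the motifs searched is in these windows.
Aire: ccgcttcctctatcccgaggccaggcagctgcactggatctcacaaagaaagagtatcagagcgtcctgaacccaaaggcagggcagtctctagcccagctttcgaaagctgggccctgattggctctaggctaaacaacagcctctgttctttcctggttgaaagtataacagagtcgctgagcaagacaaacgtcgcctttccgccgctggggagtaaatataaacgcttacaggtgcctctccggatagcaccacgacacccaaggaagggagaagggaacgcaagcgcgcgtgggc
Dnmt3l: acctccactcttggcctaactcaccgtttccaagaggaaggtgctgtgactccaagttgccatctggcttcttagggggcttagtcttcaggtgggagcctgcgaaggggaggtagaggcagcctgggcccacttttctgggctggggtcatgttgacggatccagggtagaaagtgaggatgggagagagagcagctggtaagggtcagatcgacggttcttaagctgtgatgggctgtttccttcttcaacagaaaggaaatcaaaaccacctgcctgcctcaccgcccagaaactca

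The genes on either side of the pair were each tested as well. Icosl, the ligand of the costimulatory receptor ICOS, 5.68 kb beyond Dnmt3l, was at 371 and 395 CPM in the control pair, 583 and 693 in NF-kB-activated, 466 and 428 in doubly activated, 30.8 and 31.2 in Notch-labelled and 48.1 and 48.6 in lymphoma libraries. Icosl was thus abundant in control and lowest in the Notch-labelled and lymphoma libraries. Its 3 directions were those of Aire, from a higher control level and with smaller rises: higher by 0.73 ± 0.09 in NF-kB-activated (edgeR adjusted p = 0.00011) and by 0.29 ± 0.09 in doubly activated cells than in control (0.035), and lower by -3.21 ± 0.10 in lymphoma than in doubly activated cells (2.1e-10). Pfkl, a glycolytic phosphofructokinase 19.9 kb from Aire on the other side, was at 71.0 and 78.3 CPM in the control pair and 82.1 and 74.0 in NF-kB-activated libraries, 62.5 and 60.7 in doubly activated, 178 and 176 in Notch-labelled and 51.6 and 50.8 in lymphoma libraries, highest in the Notch-labelled group. Pfkl was not called higher than control in either NIK group. Over the nearest genes of all members (51 genes, 32 tested), 4 were called higher and 2 lower in NF-kB-activated than control cells (8.72% and 6.6% of all genes tested), with a median log2 fold change of 0.136. In doubly activated against control cells 11 were called higher and 3 lower (10.5% and 9.3%), and in lymphoma against doubly activated cells 5 higher and 12 lower (26.1% and 25.2%), with medians of 0.11 and -0.15.

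**Figure D2:**
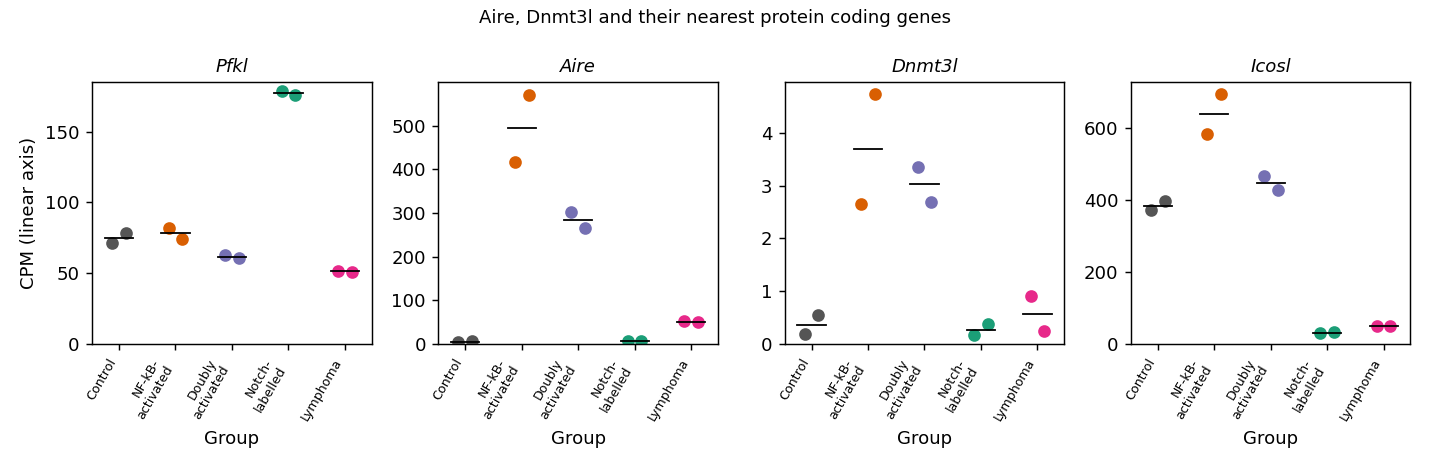
CPM (linear axis from 0, scaled separately in each panel) of Pfkl, Aire, Dnmt3l and Icosl, in their order along the chromosome, by group. Points are single libraries and bars the means of 2. Aire and Dnmt3l are high in the NF-kB-activated and doubly activated groups and low in control, while Pfkl peaks in the Notch-labelled group and Icosl is high in control.

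The remaining regulators carry zinc fingers, and they differed outside the NIK groups. Zkscan16 was at 0.488 and 0.431 CPM in the control pair, 4.67 and 5.77 in NF-kB-activated, 5.37 and 3.91 in doubly activated, 0.159 and 0 in Notch-labelled and 0.390 and 0.747 in lymphoma libraries. Zfp532 was at 5.07 and 1.90 CPM in the control pair, 14.1 and 12.8 in NF-kB-activated, 10.4 and 18.0 in doubly activated, 54.2 and 56.4 in Notch-labelled and 1.45 and 0.609 in lymphoma libraries. Its Notch-labelled level was above that of every NIK library, and its 2 control libraries differed widely. Zfp532 was higher in Notch-labelled than control libraries by 3.90 ± 0.47 on the log2 scale (edgeR adjusted p = 0.0002), and its counts were spread over several transcripts.

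The cytoskeletal and scaffold genes included Nhs, a regulator of actin remodelling at the cell edge that is mutated in Nance-Horan syndrome. Nhs lies at chrX:161833296-162159730 on the minus strand and was at 3.32 and 1.41 CPM in the control pair, 22.9 and 24.7 in NF-kB-activated, 12.5 and 14.1 in doubly activated, 0.0530 and 0 in Notch-labelled and 0.0487 and 0 in lymphoma libraries. Notch-labelled and lymphoma libraries held 1 count each over both libraries, so this member reached near absence in the groups dominated by a single heavy chain. Against doubly activated cells the lymphoma level was lower by a ratio of 589 (465 against 1 counts), a ratio that the loss threshold used and that describes the choice. Against control, 80 counts stood against 1 in the Notch-labelled libraries, a ratio of 86.2 (15.03 to 3445), and against 1 in lymphoma, a ratio of 102 (17.8 to 4073). In the fit over all genes Nhs was called lower than control in both, at edgeR adjusted p = 1.7e-05 in Notch-labelled and 2.1e-05 in lymphoma libraries. Nhs was not called between doubly activated and NF-kB-activated cells (-0.77 ± 0.30, edgeR adjusted p = 0.12). Nhs-202 held 93.6% and 92.9% of the Nhs counts in these 2 groups.

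Over the 10 libraries, the genes whose log2(CPM + 1) was most like that of Nhs were the pseudogene Gm10478 (Pearson r = 0.990), Phlpp1 (0.987), Spef2 (0.983), Spaca9 (0.981) and Slc20a1 (0.981), and none is a member. Libraries of a group and the sequencing of all 10 are shared by these values, so the r are descriptions. Phlpp1 was at 39.5 CPM on average in control, 97.3 in NF-kB-activated, 82.0 in doubly activated, 16.1 in Notch-labelled and 16.8 in lymphoma cells. Slc20a1, a phosphate transporter, was at 84.3, 235.5, 239, 56.3 and 52.4 CPM in the same order. Within the members the closest were Aox4 (0.967), Steap4 (0.966) and Aqp4 (0.940), whereas Zfp532 was at 0.171 and Gm49369 at 0.0985.

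Nostrin, which guides the trafficking of endothelial nitric oxide synthase, was at 0 and 0.808 CPM in the control pair, 4.72 and 6.13 in NF-kB-activated, 3.94 and 4.64 in doubly activated, 0.106 and 0.0532 in Notch-labelled and 0.779 and 0.467 in lymphoma libraries. Dlgap3, a postsynaptic scaffold protein, was at 0.427 and 0.108 CPM in the control pair, 3.74 and 3.70 in NF-kB-activated, 2.45 and 2.01 in doubly activated, 0.795 and 1.55 in Notch-labelled and 0.651 and 0.374 in lymphoma libraries. Ccser1, a coiled-coil protein gene that spans more than a megabase, was at 0.305 and 0.323 CPM in the control pair, 4.05 and 4.36 in NF-kB-activated, 3.19 and 1.65 in doubly activated, 0.106 and 0.532 in Notch-labelled and 0.303 and 0.421 in lymphoma libraries. Its retained-intron transcript Ccser1-204 held 22.5% of its counts in NF-kB-activated and 47.7% in doubly activated cells. The protein coding Ccser1 transcripts had means of 2.93 and 1.13 CPM in these groups. The distance of the NIK groups from control and lymphoma libraries is largely set by the choice of members. In the Notch-labelled libraries, which the choice did not use, all 3 also stayed below every NIK library.

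Among channels, receptors and membrane proteins, Cnga3 had the steepest step from NF-kB-activated to doubly activated cells of the genes with an assigned name. Cnga3 encodes a subunit of the cone photoreceptor cyclic nucleotide-gated channel. It was at 1.21 and 1.15 CPM in the control pair, 10.1 and 10.6 in NF-kB-activated, 28.9 and 33.7 in doubly activated, 0.559 and 0.723 in Notch-labelled and 1.14 and 2.20 in lymphoma libraries. Doubly activated exceeded NF-kB-activated cells by 1.67 ± 0.23 on the log2 scale (edgeR adjusted p = 0.0007). Sel1l3, a membrane protein with Sel1-type repeats, was at 1.46 and 1.51 CPM in the control pair, 9.81 and 9.92 in NF-kB-activated, 20.7 and 28.1 in doubly activated, 1.38 and 1.81 in Notch-labelled and 6.32 and 8.40 in lymphoma libraries. It was likewise higher by 1.38 ± 0.22 (edgeR adjusted p = 0.0016) and stayed above control in lymphoma by 2.37 ± 0.26 (8.9e-06).

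Adgrl2, an adhesion G protein-coupled receptor of the latrophilin family, went the other way. It was at 2.32 and 2.15 CPM in the control pair, 22.4 and 26.0 in NF-kB-activated, 10.4 and 10.8 in doubly activated, 8.06 and 12.1 in Notch-labelled and 0.866 and 0.700 in lymphoma libraries. The doubly activated level was lower than the NF-kB-activated one by -1.12 ± 0.21 (edgeR adjusted p = 0.0043), and without NF-kB-activated library 2 by -1.02 (0.051). Lymphoma lay below control by -1.43 ± 0.30 (edgeR adjusted p = 0.0014).

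Aqp4, the astrocyte water channel, was at 0.183 and 0.162 CPM in the control pair, 6.75 and 5.71 in NF-kB-activated, 5.85 and 5.62 in doubly activated, 0 and 0.0532 in Notch-labelled and 0.0866 and 0.327 in lymphoma libraries. Jph1, which joins the plasma membrane to the sarcoplasmic reticulum in muscle, was at 0.557 and 0.434 CPM in the control pair, 9.60 and 10.4 in NF-kB-activated, 6.37 and 10.9 in doubly activated, 2.61 and 3.87 in Notch-labelled and 0.616 and 0.327 in lymphoma libraries. Aqp4 was near 0 in the control, Notch-labelled and lymphoma libraries, while Jph1 had an intermediate level in the Notch-labelled libraries.

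Steap4, a metalloreductase of the plasma membrane and endosomes, was at 0.914 and 0.808 CPM in the control pair, 5.55 and 6.39 in NF-kB-activated, 5.75 and 4.64 in doubly activated, 0.424 and 0.745 in Notch-labelled and 0.130 and 0.233 in lymphoma libraries. Lilr4b, a leukocyte immunoglobulin-like receptor, was at 0.724 and 0.632 CPM in the control pair, 6.66 and 8.05 in NF-kB-activated, 8.77 and 12.2 in doubly activated, 0.949 and 2.29 in Notch-labelled and 0.526 and 0.871 in lymphoma libraries. The near-identical paralog Lilrb4a lies 4.25 kb away and did not exceed 0.564 CPM in the control and NIK groups, but was at 1.18 and 1.59 CPM in Notch-labelled and at 3.19 and 0 in lymphoma libraries. The division of reads between them is uncertain, and in lymphoma library 1 more was assigned to the paralog than to Lilr4b. Steap4 fell below control in lymphoma by -2.15 ± 0.51 (edgeR adjusted p = 0.0035), and the difference for Lilr4b was 0.09 ± 0.50.

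The secreted and cell surface proteases and inhibitors were at low levels. Adamts13, which cleaves von Willebrand factor, was at 1.64 and 0.639 CPM in the control pair, 6.22 and 6.27 in NF-kB-activated, 7.57 and 9.08 in doubly activated, 0.188 and 0.380 in Notch-labelled and 2.98 and 2.21 in lymphoma libraries. Mmp17, a membrane-anchored matrix metalloproteinase, was at 2.80 and 1.08 CPM in the control pair, 6.33 and 7.59 in NF-kB-activated, 8.83 and 8.42 in doubly activated, 3.23 and 2.18 in Notch-labelled and 1.39 and 1.26 in lymphoma libraries. Klk8, a serine protease known from the hippocampus and skin, was at 0.488 and 0.593 CPM in the control pair, 2.49 and 2.44 in NF-kB-activated, 2.66 and 2.20 in doubly activated, 1.91 and 3.35 in Notch-labelled and 0.606 and 0.840 in lymphoma libraries. Of these 3, Klk8 alone reached the level of the NIK groups in a Notch-labelled library.

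Nbl1, a secreted antagonist of bone morphogenetic proteins, was at 0.488 and 1.13 CPM in the control pair, 7.99 and 8.42 in NF-kB-activated, 12.6 and 13.8 in doubly activated, 2.33 and 3.30 in Notch-labelled and 2.94 and 3.69 in lymphoma libraries. Lymphoma kept 2.07 ± 0.36 above control on the log2 scale (edgeR adjusted p = 0.00042). Prf1, the pore-forming protein of cytotoxic lymphocytes, was at 3.99 and 4.58 CPM in the control pair, 14.9 and 20.1 in NF-kB-activated, 16.9 and 16.1 in doubly activated, 10.1 and 10.6 in Notch-labelled and 2.38 and 2.75 in lymphoma libraries. Prf1 also stands on the list of natural killer cell markers, which has 6 genes and summed to 10.2 and 13.1 CPM in the control pair, 19.7 to 25.3 in the NIK groups, 21.9 and 20.95 in Notch-labelled and 4.18 and 5.26 in lymphoma libraries. In the NIK groups the 5 other genes reached at most 0.260 (Ncr1), 0.851 (Gzma), 1.22 (Klrb1c), 1.66 (Klrk1) and 2.58 CPM (Eomes), and none was called against control, Ncr1 being too low for the test. Eomes was higher in Notch-labelled libraries, at 9.31 and 6.79 CPM against 1.92 and 1.14 in the control pair (edgeR adjusted p = 0.00016). Zap70, a kinase of T cell and natural killer cell receptors from the T cell list, was likewise highest in the NIK groups and lowest in lymphoma, at 7.01 and 6.95 CPM in the control pair, 14.7 to 17.5 in the NIK groups, 9.70 and 9.31 in Notch-labelled and 1.56 and 0.607 in lymphoma libraries. Zap70 alone of the 10 T cell genes tested was called higher than control in each NIK group (8.72% and 10.5% of all genes). Called lower were 1 in NF-kB-activated and 4 in doubly activated cells (6.6% and 9.3%). That Prf1 belongs to the B cells rather than to T or natural killer cells was not tested.

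Of the enzymes, Aox4, an aldehyde oxidase, was at 3.25 and 2.53 CPM in the control pair, 15.7 and 18.1 in NF-kB-activated, 15.5 and 12.4 in doubly activated, 0.424 and 0.160 in Notch-labelled and 1.77 and 1.45 in lymphoma libraries. The adjacent paralogs Aox3 and Aox2 did not exceed 0.327 CPM in any library. Ephx2, the soluble epoxide hydrolase, was at 0.183 and 0.377 CPM in the control pair, 5.14 and 5.71 in NF-kB-activated, 5.53 and 3.24 in doubly activated, 0.742 and 0.745 in Notch-labelled and 0.130 and 0.0467 in lymphoma libraries. Aox4 was at its lowest in the Notch-labelled group and Ephx2 in lymphoma.

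Ifi44 is induced by type I interferon. It was at 2.20 and 1.52 CPM in the control pair, 6.09 and 12.8 in NF-kB-activated, 11.8 and 9.70 in doubly activated, 17.4 and 20.95 in Notch-labelled and 0.173 and 0.455 in lymphoma libraries. Ifi44 was highest in the Notch-labelled libraries and fell under control in lymphoma by -2.46 ± 0.54 (edgeR adjusted p = 0.0023).

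The predicted gene 2900026A02Rik, named after its values were seen, had the largest step of the members from NF-kB-activated to doubly activated cells. It was at 1.25 and 1.86 CPM in the control pair, 29.5 and 33.8 in NF-kB-activated, 173 and 189 in doubly activated, 38.8 and 36.1 in Notch-labelled and 42.6 and 43.3 in lymphoma libraries. Its doubly activated level exceeded that of each single allele, and the lymphoma level was close to that of either single allele. A doubly activated mean above that of each single-allele group was also seen in Cnga3, Sel1l3, Nbl1, Lilr4b, Adamts13 and Mmp17. Doubly activated exceeded NF-kB-activated cells by 2.59 ± 0.11 (edgeR adjusted p = 2.7e-07). The other predicted genes, Gm45234 and Gm49369, overlap Atn1 and Grcc10, and Ctsd and Ifitm10, on the same strand, so their reads cannot be told from those of these genes with certainty. Gm45234 had no count in control and 5.93 and 6.44 CPM in NF-kB-activated, 10.2 and 4.92 in doubly activated, 12.5 and 4.33 in Notch-labelled and 0.712 and 0 in lymphoma libraries, which places doubly activated cells at least 90.5-fold above a control floor of 3 counts over the group.

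The Notch-labelled libraries entered no threshold, although the control libraries they are compared with did. In that comparison 11 of 27 members were called higher, where 34.2% of all genes tested were, and 5 were called lower, where 29.5% were. The median log2 fold change was 1.12 over the members and 0.07 over all genes. For the 59 induced genes that did not meet the loss threshold, 51 were called higher and 1 lower, with a median of 2.50. The share of members called higher, 40.7%, is near the background share. That the 2 sets of induced genes differ in this was not tested.

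The rises over control in Notch-labelled libraries were led by Zfp532 and then Ifi44 (3.27 ± 0.38, edgeR adjusted p = 1.5e-05), Jph1 (2.61 ± 0.44, 0.00022), Klk8 (2.15 ± 0.46, 0.0013), Adgrl2 (2.06 ± 0.24, 1e-05) and Dlgap3 (2.03 ± 0.64, 0.015), with the predicted genes 2900026A02Rik and Gm45234 above them. Nbl1 (1.66 ± 0.37) and Prf1 (1.17 ± 0.20) were called higher as well. Dlgap3 lost its call without control library 2 (edgeR adjusted p = 0.118) or without Notch-labelled library 2 (0.121). The stromal and endothelial marker list summed to 853 and 1098 CPM in the Notch-labelled libraries, against 190.1 to 312 in the control and NIK groups. Pecam1 made up most of the latter (187 to 305 CPM) and was at 178 and 175 in Notch-labelled libraries. Col1a2 was at 415 and 574 CPM there, against at most 0.862 in the control and NIK groups, and Col1a1 at 193 and 255 against at most 2.10. Of 7 genes tested, 5 were called higher than control and 1 lower (34.2% and 29.5% of all genes). The part of stromal RNA in these rises was not tested.

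The falls were Nhs, Aox4 (-3.38 ± 0.39, edgeR adjusted p = 1e-05), Zkscan16 (16 counts against 3, a ratio of 5.74 with an exact 95% interval of 1.64 to 30.8; adjusted p = 0.019), Adamts13 (-2.04 ± 0.54, 0.0052) and Cnga3 (-0.92 ± 0.38, 0.047). The calls of the last 3 rested on single libraries. Adamts13 was at adjusted p = 0.082 without control library 1, Zkscan16 at 0.052 without control library 1 and 0.111 without Notch-labelled library 2, and Cnga3 at 0.0511 to 0.189 without any single one of the 8 libraries other than lymphoma. The 11 members not called included Aire, Sel1l3 (-0.01 ± 0.30), Steap4 (-0.66 ± 0.44), Mmp17 (0.39 ± 0.40), Lilr4b (1.12 ± 0.47) and Ephx2 (1.26 ± 0.56).

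Between doubly activated and NF-kB-activated cells both means had to pass the thresholds, but their ratio was not a criterion. 3 members were called higher, where 6.62% of all genes were, and 3 lower, where 7.28% were, so 21 of 27 were not called. The higher were 2900026A02Rik, Cnga3 and Sel1l3, and the lower included Aire and Adgrl2. In 16 members the group means were within 1.5-fold of each other, among them Aox4 (-0.21 ± 0.25), Prf1 (-0.02 ± 0.18) and Aqp4 (-0.05 ± 0.40). The median log2 fold change was -0.05. This step from NF-kB-activated to doubly activated cells differed from the step from control to Notch-labelled cells in 16 members. The difference was positive in 5, where 23.9% of all genes were called, and negative in 11, where 25.6% were. Allele, cell type label, clone, CD19Cre and sex cannot be told apart in the step from control to Notch-labelled cells. The groups in this test other than the Notch-labelled one also entered the choice of members.

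Lymphoma and control were both held down by the thresholds, and their ratio was not a criterion. 6 members were called higher in lymphoma than control, where 27.8% of all genes were, and 6 lower, where 25.6% were. The members above control included 2900026A02Rik (4.81 ± 0.16, edgeR adjusted p = 2.7e-10), Aire, Sel1l3, Nbl1 and Adamts13 (1.26 ± 0.42, 0.023). Those below it were Nhs, Ifi44, Steap4, Adgrl2, Aox4 (-0.76 ± 0.30, 0.049) and Prf1 (-0.67 ± 0.22, 0.021). The remaining 15 were not called, at -1.63 ± 0.61 for Zfp532 and 0.02 ± 0.52 for Jph1 for example. Adamts13 lost its call without control library 2 (edgeR adjusted p = 0.174) or lymphoma library 1 (0.135), Prf1 without the same libraries (0.105 and 0.107), and Aox4 without any single one of 7 libraries (0.0617 to 0.205).

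**Figure D3:**
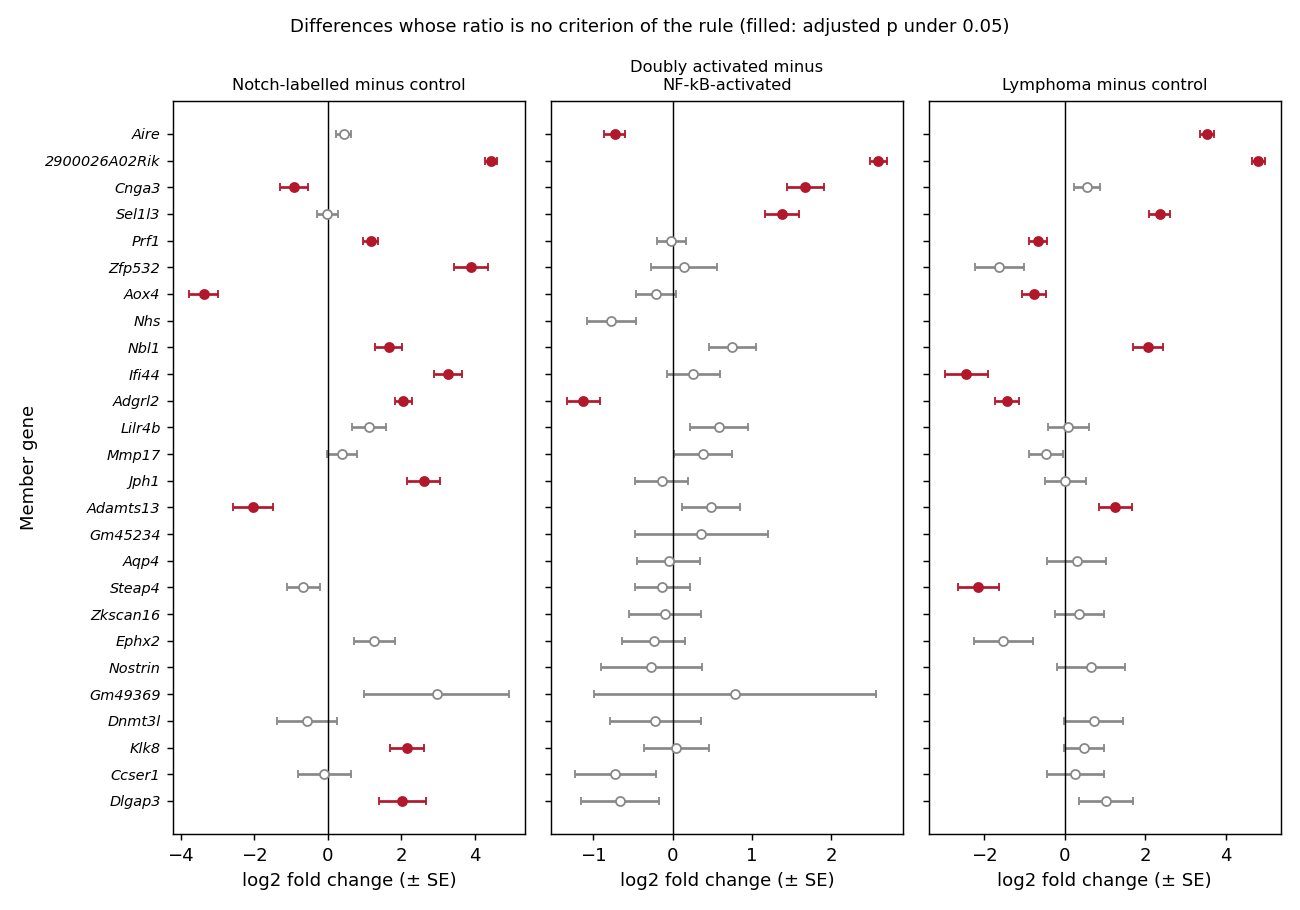
Log2 fold change with its SE (bars) of 26 members in 3 comparisons that share libraries with one another, from the edgeR fit. Filled points passed adjusted p under 0.05, open points did not, and no point is drawn where a group held 3 counts or fewer. Points scatter on either side of 0 in each panel, and the middle panel has 5 filled points.

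**Figure D4:**
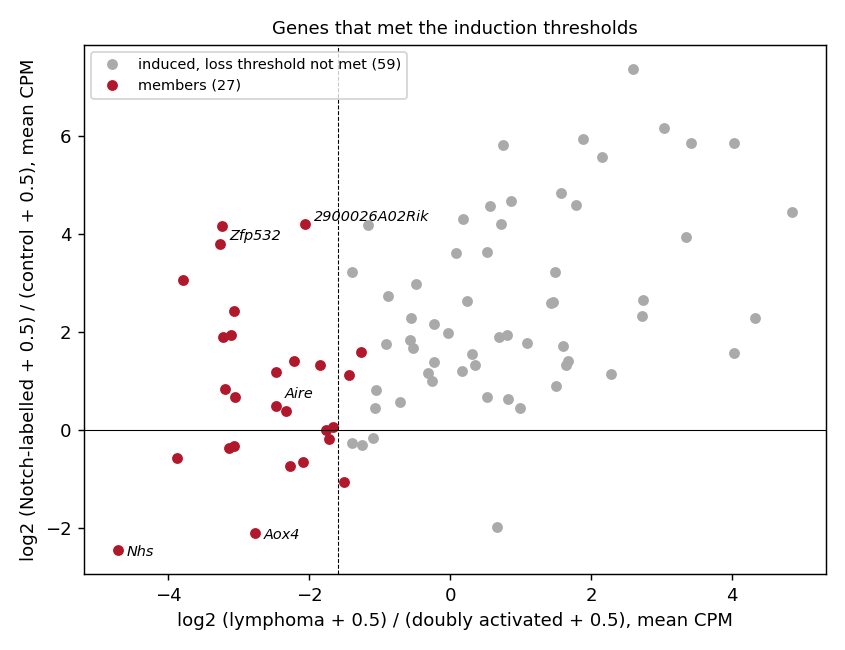
All 86 genes that met the induction thresholds, members in red and the 59 others in grey, by log2 ratio of mean CPM in lymphoma to doubly activated cells (x axis) and in Notch-labelled to control cells (y axis), with 0.5 added to each mean. The dashed line marks the 3-fold loss before 0.5 is added, which moves some low members past it. The separation along x is the rule itself, while along y the members reach from Nhs, far below 0, to 2900026A02Rik and Zfp532 near 4.

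The NF-kB pathway list of 37 genes, all tested, gives the context for the members. In NF-kB-activated against control cells 17 rose and 3 fell (8.72% and 6.6% of all genes tested), and in doubly activated against control cells 18 rose and 3 fell (10.5% and 9.3%), with medians of 0.36 and 0.40 against 0 over all genes. In lymphoma against doubly activated cells 7 rose and 21 fell (26.1% and 25.2% of all genes), with a median of -0.48 against 0.01 over all genes. Nfkb2, the gene of p100, was at 286 and 352 CPM in the control pair, 613 and 615 in NF-kB-activated, 625 and 637 in doubly activated, 216 and 225 in Notch-labelled and 283 and 277 in lymphoma libraries. The lymphoma level of Nfkb2 was lower than that of doubly activated cells by -1.17 ± 0.09 (edgeR adjusted p = 5.5e-07), and both lymphoma values lay just under those of control.

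Traf1, an adaptor of TNF receptors and an NF-kB target, was at 74.1 and 67.8 CPM in the control pair, 226 and 228 in NF-kB-activated, 269 and 286 in doubly activated, 46.1 and 47.1 in Notch-labelled and 94.8 and 89.1 in lymphoma libraries. Relb, the partner of p52, was at 83.8 and 104 CPM in the control pair, 126 and 124 in NF-kB-activated, 122 and 144 in doubly activated, 82.9 and 76.7 in Notch-labelled and 67.5 and 65.5 in lymphoma libraries. Both were thus higher with NIK and lower in lymphoma, as the members are by choice, but over a narrower range. Cd80, a costimulatory ligand, did not fall in lymphoma: it was at 16.2 and 18.0 CPM in lymphoma, against 9.85 and 9.16 in doubly activated libraries, higher by 0.84 ± 0.22 (edgeR adjusted p = 0.0058). In Notch-labelled against control cells 7 genes of the list rose and 20 fell (34.2% and 29.5% of all genes tested). In doubly activated against NF-kB-activated cells 6 rose and 3 fell (6.62% and 7.28%), and in lymphoma against control 14 rose and 12 fell (27.8% and 25.6%).

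A 10-base NF-kB motif of the letters GGGNNNTTCC and a 9-base form GGGNNTTCC were searched on both strands of 300-base promoter windows from RefSeq (GRCm38.p6, 250 bases before to 50 after a start), and a 9-base match may lie within a 10-base one. Windows were found for 17 of 27 members. The longer form was in 3 of these (2900026A02Rik, Adamts13 and Steap4), against 6.60% of 17491 genes with a window, the shorter in 2 (Klk8 and Steap4), against 7.17%, and either in 4 of 17, against 11.7%. The Rbpj letters TGGGAA were in 4 of 17 (Adamts13, Nostrin, Prf1 and Steap4) against 27.4%. A median CpG ratio of observed to expected of 0.29 over 21 member windows stood beside 0.57 over all windows. The 4 windows with an NF-kB match are printed with the match in capitals, and that of Nhs, without one, for comparison. They cover chr5:7960222-7960521 (plus) for Steap4, chr7:43797327-43797626 (plus) for Klk8, chr2:26973166-26973465 (plus) for Adamts13, chr5:113221227-113221526 (minus) for 2900026A02Rik and chrX:162159392-162159691 (minus) for Nhs.
Steap4: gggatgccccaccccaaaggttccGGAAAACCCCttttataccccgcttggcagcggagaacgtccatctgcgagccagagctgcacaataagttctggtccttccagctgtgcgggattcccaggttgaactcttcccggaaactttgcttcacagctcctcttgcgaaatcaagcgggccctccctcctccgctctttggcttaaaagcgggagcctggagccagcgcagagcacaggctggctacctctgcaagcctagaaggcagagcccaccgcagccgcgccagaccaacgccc
Klk8: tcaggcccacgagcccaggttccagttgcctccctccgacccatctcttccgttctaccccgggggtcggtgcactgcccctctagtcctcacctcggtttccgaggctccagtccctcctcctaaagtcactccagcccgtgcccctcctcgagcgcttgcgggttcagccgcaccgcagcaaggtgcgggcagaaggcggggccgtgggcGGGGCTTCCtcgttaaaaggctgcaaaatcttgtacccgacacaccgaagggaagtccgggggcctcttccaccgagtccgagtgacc
Adamts13: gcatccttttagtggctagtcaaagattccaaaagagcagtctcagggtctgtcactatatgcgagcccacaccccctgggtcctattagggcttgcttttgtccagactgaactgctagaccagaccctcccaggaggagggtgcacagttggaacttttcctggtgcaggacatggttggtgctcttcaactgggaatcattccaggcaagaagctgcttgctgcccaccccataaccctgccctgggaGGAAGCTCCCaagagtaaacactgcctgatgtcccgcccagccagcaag
2900026A02Rik: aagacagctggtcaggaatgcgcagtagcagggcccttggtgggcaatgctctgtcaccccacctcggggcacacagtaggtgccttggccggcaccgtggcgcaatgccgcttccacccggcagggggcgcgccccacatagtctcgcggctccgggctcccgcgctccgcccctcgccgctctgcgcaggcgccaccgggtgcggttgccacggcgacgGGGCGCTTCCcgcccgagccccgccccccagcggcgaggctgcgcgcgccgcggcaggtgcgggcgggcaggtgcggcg
Nhs: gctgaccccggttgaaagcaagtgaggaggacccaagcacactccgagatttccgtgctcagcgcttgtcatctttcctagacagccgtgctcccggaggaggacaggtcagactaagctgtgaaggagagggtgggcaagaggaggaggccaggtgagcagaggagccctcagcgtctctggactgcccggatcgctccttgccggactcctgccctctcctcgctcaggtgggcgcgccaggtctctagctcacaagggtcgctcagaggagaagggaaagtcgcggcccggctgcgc

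A match begins 226 bases before the start in Steap4, where the 9-base and 10-base matches overlap, 38 bases before it in Klk8, 29 before it in 2900026A02Rik and 1 after it in Adamts13. The 4 genes with a match share the rise with NIK and the fall in lymphoma by choice. They differed in the Notch-labelled comparison, which the choice did not use: Klk8 and 2900026A02Rik were higher than control, Adamts13 lower and Steap4 not called.

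Neutrophil RNA differed between the NF-kB-activated libraries. The neutrophil list summed to 9.64 and 26.6 CPM in control, 15.6 and 9.83 in doubly activated, 87.4 and 87.0 in Notch-labelled and 19.1 and 20.6 in lymphoma libraries. In the NF-kB-activated pair it summed to 482 and 149 CPM, and all 12 of its genes were higher in library 1. Of the 12, 7 were called higher in NF-kB-activated than control cells (8.72% of all genes), with a median log2 fold change of 5.04. In doubly activated cells 0 were called higher (10.5%). Of 26 members with counts in both NF-kB-activated libraries, 4 were higher in library 1. The median ratio of library 1 to library 2 was 0.910 over the members and 3.43 over the neutrophil list. The part of neutrophil RNA in the values of the members was not tested.

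The dendritic cell list of 10 genes summed to 103 and 209 CPM in the control pair, 284 to 425 in the NIK groups, 279.7 and 275.5 in Notch-labelled and 622 and 669 in lymphoma libraries. Of 9 genes tested, 3 were called higher in NF-kB-activated cells than in control and 2 in doubly activated cells. Zbtb46, a transcription factor of classical dendritic cells, was at 1.59 and 3.12 CPM in the control pair, 39.1 and 41.5 in NF-kB-activated, 26.2 and 28.2 in doubly activated, 2.70 and 2.55 in Notch-labelled and 13.5 and 15.3 in lymphoma libraries. Fscn1, which bundles actin, was at 0.853 and 5.17 CPM in the control pair, 161 and 149 in NF-kB-activated, 111 and 140.1 in doubly activated, 218 and 214 in Notch-labelled and 488 and 439 in lymphoma libraries. Zbtb46 thus rose with the members and was lower in lymphoma, whereas Fscn1 was highest there. Flt3 was also called higher in NF-kB-activated than control cells (1.6 ± 0.30, edgeR adjusted p = 0.0030), at 16.7 and 11.7 CPM against 3.28 and 5.9. In doubly activated libraries Flt3 was at 6.05 and 7.18 CPM and was not called (edgeR adjusted p = 0.22). Itgax and Ccr7 were not called against control in either NIK group. The remaining markers Cd209a, Clec9a, Batf3, Siglech and Xcr1 did not exceed 1.62 CPM in the NIK groups, and none of those tested was called against control there. The part of such cells in the values of the members was not tested.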

How the data were processed

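Total RNA of 10 libraries in 5 groups was sequenced on Illumina instruments, per the labels' protocols. Each library has 1 deposited file, in which the authors give estimated counts and TPM for 88198 transcripts, per the file headers. Per the submitters' processing notes, the tool was kallisto 0.44.0 and the build mm10; no source used here gives the transcript release. Of the transcripts, 86031 had an identifier in GENCODE M21 (GRCm38) and summed to 30205 genes; the other 2167 held 1.09% to 1.38% of a library's counts.

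The deposited estimated counts, summed per gene and rounded, were tested with edgeR 4.0.16 (R 4.3.3): filterByExpr by group (minimum count 10, minimum total 15), TMM scaling and a robust quasi-likelihood model of the 5 groups fitted to all 10 libraries (5 residual degrees of freedom; biological coefficient of variation 0.1205). Two-sided tests were Benjamini-Hochberg adjusted over all 15583 genes and called at 0.05. SE is the log2 fold change over the square root of its F statistic. CPM are over the library's total estimated counts, and the deposited TPM served to compare levels between genes. Libraries of a group differed beyond counting error, at 4.48 to 22.1 chi-square per degree of freedom. The script was tested on simulated data.

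Members and lists were chosen with earlier results of these data known. Values in every library are given for members with an assigned name by fixed ranks of level, ratio and called change; predicted genes were named after their values were seen. 1 member is counted in the totals but is not reported here. Alternatives were other scalings, filters, DESeq2 1.42.0, a fit of the compared groups alone, a block for replicate number and omission of each library; leaving out both Notch-labelled or both lymphoma libraries, and the test of the difference between differences, were chosen after seeing the data.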

Additional observations from a re-analysis of the deposited data

Results flagged for a closer look

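For 16 of 27 members, the step with the Notch2 allele differed between the NIK background (doubly activated against NF-kB-activated) and wild type (Notch-labelled against control). The test was edgeR's quasi-likelihood test of the difference of log2 fold changes, with Benjamini-Hochberg adjustment over all 15583 genes. Notch2 RNA itself was lower in Notch-labelled than in control libraries. A negative value means that the step from NF-kB-activated to doubly activated cells was lower than that from control to Notch-labelled cells. Cell type label and V segment differ together with genotype in the Notch-labelled libraries, so allele and cell type cannot be told apart in these values, and the libraries of the other 3 groups in this test also entered the choice of members.

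The negative differences included -3.182 for Adgrl2 (adjusted p = 6.4e-06), -1.848 for 2900026A02Rik, -3.012 for Ifi44, -2.744 for Jph1 and -3.759 for Zfp532. Smaller or less certain ones were -1.171 for Aire, -1.184 for Prf1, -2.107 for Klk8, -2.689 for Dlgap3 and -9.856 for Gm45234, which had no count in control, so its size depends on the prior count. The positive differences were 5.451 for Nhs, with 1 count in the Notch-labelled libraries, 3.164 for Aox4, 2.592 for Cnga3, 2.521 for Adamts13 and 1.387 for Sel1l3 (adjusted p = 0.0075). Without Notch-labelled library 2 the adjusted p was 0.075 for Klk8 and 0.080 for Dlgap3, and without control library 2 it was 0.058 for Dlgap3. Gm45234 was at 0.0503 to 0.0551 without either control library or either NF-kB-activated library and at 0.0556 with no low count filter, and 13 of the 16 kept their call in every alternative run.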

How the results depend on the processing

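No log2 fold change of a member called in the comparisons with printed p-values reversed in any alternative; members not called were not followed. A fit of the compared groups alone gave 3 members lower in Notch-labelled than control cells (5 in the main result) and 5 NF-kB list genes lower in doubly activated than NF-kB-activated cells (3). Folds of 2 in place of 3 gave 52 members (27), the deposited TPM in place of CPM gave 32, of which 23 were shared, and folds of 4 gave 19. Leaving out 1 library at a time, the rule found 26 to 33 genes; without control library 1 it dropped Aire, whose other control library is at 5.08 CPM. With 1 library left in a group, that library was assumed to vary like the others. Members called in Notch-labelled against control cells were then 10 to 12 higher and 3 to 6 lower. They were 3 to 4 higher and 2 to 4 lower in doubly against NF-kB-activated cells, and 6 to 7 higher and 4 to 7 lower in lymphoma against control. NF-kB list genes called higher in Notch-labelled cells were 2 to 7 (2 without Notch-labelled library 1), called lower in doubly activated cells 2 to 5 against control (5 without control library 1) and 3 to 5 against NF-kB-activated cells (5 without either control library). Calls held in every alternative for 12 of 16 members in Notch-labelled against control cells, 4 of 6 in doubly against NF-kB-activated cells and 8 of 12 in lymphoma against control. Cnga3 also lost its Notch-labelled call with RLE size factors, library size alone and DESeq2 (edgeR or DESeq2 adjusted p = 0.0540 to 0.0807). In the fit of the compared groups Adamts13 (0.0763), Prf1 (0.134) and Aox4 (0.158) lost their lymphoma calls, and Dlgap3 (0.0553) and Cnga3 (0.118) their Notch-labelled ones. Aox4 also lost its lymphoma call with DESeq2 (0.0575) and with no low count filter (0.0536). Replicate numbers did not pair the libraries (r = -0.133 to 0.082 over 10 pairs of groups), and the replicate block changed 3 member calls: Aox4 lost its call in lymphoma against control (-0.76, edgeR adjusted p = 0.0505) and Zfp532 in NF-kB-activated against control cells, and Lilr4b gained one in Notch-labelled against control cells (0.0434). Where another cause was not named, the cause was not tested. Depth limits members with few counts, such as Aqp4, with 0 to 7 counts a library outside the NIK groups.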
